A study of Mus musculus with 18 samples.

Results

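The Toll-like receptors and co-receptors described here are 8 mouse genes, namely *Tlr1*, *Tlr2*, *Tlr4*, *Tlr6*, *Tlr9*, *Cd14*, *Ly96* and *Myd88*. They were chosen by name, out of 22367 protein-coding genes, and the locus of each was taken as the gene span in mm9 (GENCODE vM1) with 30 kb on either side. Binding of the transcription factors C/EBPα, C/EBPβ and PU.1 was measured by chromatin immunoprecipitation followed by sequencing (ChIP-seq) in C10 cells, a HAFTL-derived pre-B cell line that carries a C/EBPαER fusion tagged with GFP. β-Estradiol (100 nM per the labels), given together with IL-3 and CSF-1 (10 nM), moves the fusion into the nucleus, and the cells then turn into macrophage-like cells. For C/EBPα there were 8 libraries, from before induction (0 h), 10, 30 and 60 min, and 3, 12, 24 and 48 hours post-induction (hpi). The other factors had 5 each, without the minutes.

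All 18 libraries came from this 1 line, with 1 library per factor and time point, so that no test between libraries was possible and all 95% intervals (exact Poisson) cover counting error only; amplified reads are not independent molecules. No input or control library was used here, and the PU.1 library of 0 hpi is named as merged in the summary of peak calling. The C/EBPα libraries of 10, 30 and 60 min were sequenced on another instrument and with longer reads than the other libraries, so at these time points time and sequencing cannot be told apart. The reads do not separate the fusion from endogenous C/EBPα. Libraries held 2901164 to 24909437 reads, counted once per position and strand. RNA was not measured in these libraries, and neither the cell type nor the expression of the 8 genes could be checked from them.

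Toll-like receptors recognise conserved microbial molecules and signal through adaptor proteins to NF-κB and the interferon pathway, and they are abundant in macrophages. TLR2 pairs with TLR1 or TLR6 to detect lipopeptides, TLR4 detects bacterial lipopolysaccharide, and TLR9 detects unmethylated CpG DNA in endosomes. CD14 hands lipopolysaccharide to TLR4, LY96 (MD-2) is the subunit of the TLR4 complex that holds it, and MYD88 is the adaptor used by nearly all receptors of the family.

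At the 8 loci PU.1 was called before induction. C/EBPα was called in more of them after induction than before, and how many held a call within the first hour changed when reads were thinned. PU.1 was called in all 8 loci at every time point, with its most reads at 0 hpi at the starts of *Tlr4* and *Tlr9*, beyond the end of *Tlr2* and just upstream of *Tlr6*. C/EBPα was called in 1 locus at 0 hpi (*Tlr2*), in 5 at 10 min, in all 8 at 30 min, 60 min and 3 hpi, and in 7 at 12, 24 and 48 hpi, when *Ly96* had none. With every C/EBPα library thinned to the depth of the smallest, these numbers were 1, 2, 5, 4, 6, 7, 6 and 6 from 0 hpi to 48 hpi. Thinned libraries of all factors kept the window and tag threshold of their full depth. For C/EBPα at 10, 30 and 60 min this was 12, 10 and 11 reads. The 12 hpi library, the smallest, was not thinned and needed 7. Lower early counts after thinning are thus partly built in, and the part of depth cannot be told from them. C/EBPβ was called in no locus at 0 hpi, in 5 at 3 hpi, in 6 at 12 and 24 hpi, and in 7 at 48 hpi, or in 0, 3, 6, 6 and 7 after thinning. The window of a call differed between libraries. A C/EBPα call needed 7 reads in 68 bp at 0 hpi and 8 in 124 bp at 48 hpi. For C/EBPβ it was 6 reads in 56 bp and 7 in 127 bp. The part of these narrower windows in the few C/EBP calls at 0 hpi was not tested.

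The counts before thinning are to be read against the share of all protein-coding loci, defined in the same way, that held a call in the same library. For C/EBPα this share was 15.3% at 0 hpi, 37.3% at 10 min, 46.1% at 30 min, 58.7% at 60 min, 54.8% at 3 hpi, 50.4% at 12 hpi, 41.8% at 24 hpi and 38.4% at 48 hpi. For C/EBPβ it was 4.4% at 0 hpi, 26.6% at 3 hpi, 13% at 12 hpi, 27.9% at 24 hpi and 47.5% at 48 hpi. For PU.1 it was 70.6% at 0 hpi, 73.8% at 3 hpi, 82.7% at 12 hpi, 77.4% at 24 hpi and 75.3% at 48 hpi, so that a PU.1 call in every locus is close to what most genes showed. Shares after thinning are not given, so the thinned counts have no background here. Thinning lowered the C/EBPα regions of the genome at 60 min from 30558 to 10566. The loci of *Tlr1* and *Tlr6* overlap and shared 7 sites, and therefore do not count as independent loci.

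**Figure D1:**
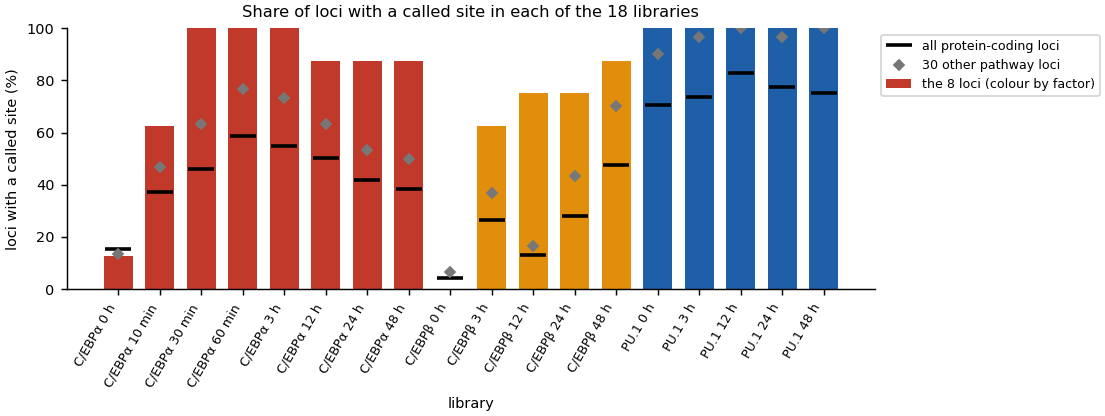
Percentage of loci with at least 1 called site in each of the 18 libraries: coloured bars, the 8 loci; grey diamonds, 30 other genes of the pathway; black marks, all protein-coding loci. The 8 loci lie above the black mark in every library except C/EBPα and C/EBPβ at 0 hpi, with 1 and 0 loci.

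Calls of the 18 libraries with centres within 200 bp were joined into sites, which gave 108 sites in the 8 loci, 31 of them called in 1 library. PU.1 was called at 81 sites, C/EBPα at 48 and C/EBPβ at 33, where the 128605 sites of the genome gave 94265, 50222 and 19120. In the 8 loci PU.1 alone was called at 53 sites, all 3 factors at 13, both C/EBP factors without PU.1 at 13, and C/EBPα with PU.1 but without C/EBPβ at 13. Genome shares of these combinations are not given here. The number of sites called for C/EBPα was 1, 7, 22, 32, 28, 20, 19 and 18 from 0 hpi to 48 hpi. This order depended on depth: with every C/EBPα library thinned to 5968544 reads, the numbers were 1, 2, 12, 12, 18, 20, 15 and 13, and the highest number moved from 60 min to 12 hpi. For C/EBPβ 0, 9, 6, 13 and 32 sites were called, or 0, 5, 6, 12 and 18 after thinning. For PU.1 the numbers were 28, 35, 64, 58 and 52, or 27, 35, 51, 48 and 44 after thinning. Regions called over the whole genome took a like course. For C/EBPα they numbered 2739, 11733, 19866, 30558, 25737, 15365, 11404 and 9627. After thinning, with the same limit, 12 hpi was highest too (15365). For C/EBPβ they numbered 785, 7605, 2587, 7009 and 15909, and for PU.1 35261, 41412, 73411, 55922 and 51178. The course was thus not particular to the 8 loci.

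Levels are given below as normalised reads, which are reads per 10000000 reads of the library in the 200 bp around a site, each read being moved 75 bp inward. In bins more than 1000 bp from any site the same loci held 0.508 to 1.77 normalised reads per 200 bp, depending on locus and library. Sites are named by gene and distance of their centre from the annotated start, with positive values downstream. A site was named if it had the most reads of a factor in its locus (C/EBPα or C/EBPβ at 48 hpi, PU.1 at 0 or 48 hpi) or lay within 500 bp of the start. Naming by the reads of 48 or 0 hpi favours a rise or a fall in the ratio of 48 to 0 hpi. The intervals of these ratios do not allow for it. Sites in the windows drawn in the published plots of *Tlr4* and *Cd14* were named too. All other sites described one by one were picked after their values were seen, and this is said where they appear; sites listed only for a shared call were not picked by level.

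**Figure D2:**
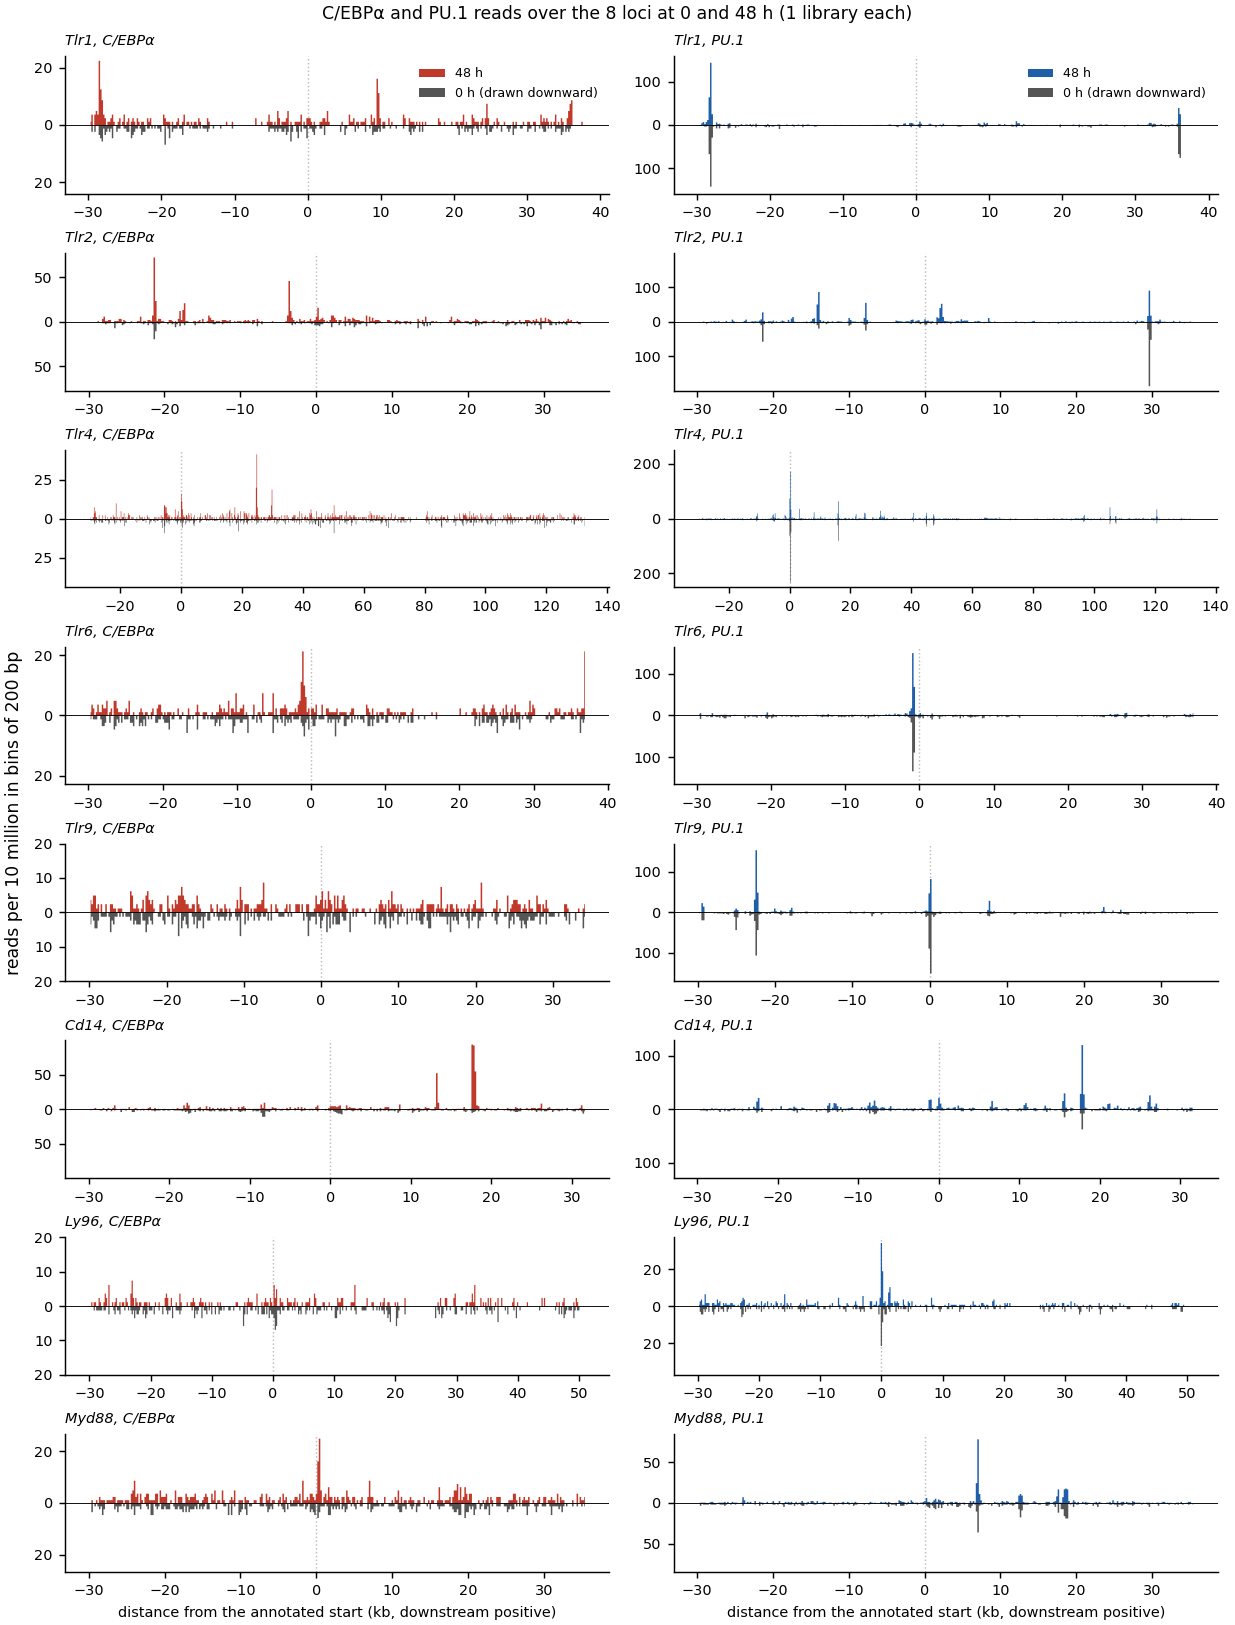
Normalised reads (per 10000000) in bins of 200 bp over each locus, against the distance from the annotated start in kb. The library of 48 hpi is drawn upward in colour and that of 0 hpi downward in grey, for C/EBPα (left) and PU.1 (right); the tall C/EBPα bars of *Tlr2*, *Tlr4* and *Cd14* stand above the line, those of *Ly96* and *Tlr9* are low on both sides, and the PU.1 bars of *Tlr4*, *Tlr6* and *Tlr9* stand on both sides of it.

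*Tlr2* (chr3:83640195-83645689, minus strand) had 15 sites, and no other coding gene lies in its locus. Its strongest C/EBPα site at 48 hpi, intergenic at −21.4 kb (chr3:83666942-83667141), was the one site of the 8 loci called for C/EBPα before induction and at all 8 time points. The call at 0 hpi was lost with a tag threshold 1.5 times higher. With a window of 200 bp and a Poisson p of 1e-07, changed together, there were 3 sites in 3 loci at 0 hpi. C/EBPα levels there were 19.2, 28.9, 120, 104, 98, 132, 63.3 and 77.9 normalised reads from 0 hpi to 48 hpi, so that every library from 30 min on was above the first pair. The ratio of 48 hpi to 0 hpi was 4.07 (95% interval 2.35 to 7.42). C/EBPβ levels at this site were 9.34, 46.2, 41.4, 57.6 and 82.8, higher in all libraries after induction than at 0 hpi. All 5 PU.1 libraries had a call there, at 49.6, 44.1, 44.8, 24.7 and 23.9 normalised reads, and the level was 2.08 times lower at 48 than at 0 hpi. The direction of PU.1 at this site was thus opposite to that of both C/EBP factors.

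Other C/EBP sites upstream of *Tlr2* carried no PU.1 call at any time point. At −17.5 kb, which had the most C/EBPβ reads of the locus at 48 hpi, C/EBPα levels were 3.38, 0.803, 6.15, 20, 44, 35.2, 33 and 25.1. C/EBPβ levels at −17.5 kb were 0, 12, 27.6, 64 and 84.7. The level at 48 hpi was 12.1 times the floor of 3 reads set for 0 hpi, with a lower 95% bound of 9.42 on the reads as counted. PU.1 stayed without a call there, although its levels of 1.42, 10.6, 21.5, 14.1 and 20.1 were above the reads of the surrounding bins from 3 hpi on. The site at −3.6 kb, picked after its values were seen, had C/EBPα levels of 1.13, 2.01, 5.38, 12.3, 29.7, 38.5, 30.3 and 52.8 and was the one with the next most C/EBPα reads at 48 hpi.

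A further site at −25.2 kb (chr3:83670834-83671033), also picked after its values were seen, was occupied by C/EBPα for a few hours. Its C/EBPα levels were 0, 4.42, 100, 92.6, 28.8, 5.03, 2.64 and 0, and it held no read at 0 or 48 hpi. At 30 min its interval (83.5 to 119) overlapped that of the −21.4 kb site (102 to 140). PU.1 levels there were 2.84 to 4.78 in its 5 libraries, with no call. C/EBPβ was called in 1 library, at 3 hpi, 274 bp from the site centre. Both sequences are shown because C/EBPα reads were gone from one site at 48 hpi and not from the other. Capitals mark matches to the C/EBP consensus TTGCNNAA on either strand (mm9, plus strand).

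Tlr2 −21.4 kb: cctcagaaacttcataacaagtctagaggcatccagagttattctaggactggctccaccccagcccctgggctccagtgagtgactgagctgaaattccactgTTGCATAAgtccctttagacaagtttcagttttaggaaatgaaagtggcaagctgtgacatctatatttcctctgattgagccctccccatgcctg
Tlr2 −25.2 kb: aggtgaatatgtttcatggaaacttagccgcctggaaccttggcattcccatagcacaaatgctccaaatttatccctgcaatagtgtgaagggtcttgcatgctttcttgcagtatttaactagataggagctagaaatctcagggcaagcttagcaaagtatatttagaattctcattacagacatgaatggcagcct

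The consensus occurred once in the −21.4 kb window, near its centre, and these letters were not in the −25.2 kb window. Over the 8 loci the sets did not differ in this way. The letters occurred in 6 of 19 sites called for C/EBPα only between 10 min and 3 hpi (31.6%). Of the 18 sites called at 48 hpi, 5 held them (27.8%). Their part in C/EBPα binding was not tested.

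PU.1 levels at single *Tlr2* sites went in both directions. The strongest sites at 0 and at 48 hpi were chosen by these same reads, which favours a fall and a rise. Their intervals do not allow for that choice. At +29.6 kb, the strongest at 0 hpi, PU.1 levels were 194, 129, 105, 51.1 and 86, and the ratio of 48 to 0 hpi was 0.443 (0.335 to 0.582). At −14.1 kb, the strongest at 48 hpi, levels were 21.3, 31.9, 81.2, 70.5 and 100, with a ratio of 4.72 (2.73 to 8.73). A site in the intron at +2.1 kb, picked after its values were seen, went from 2.84 to 27.4, 76.5, 67.8 and 75.5. The site within 500 bp of the start (+0.1 kb, in a UTR exon) had PU.1 levels of 11.3, 13.7, 43.9, 16.7 and 5.73 and was called at the first 3 of these time points, while C/EBPα was called there from 12 hpi on at 15.1 to 18.5 normalised reads. Around the strongest C/EBPα call, 250 bp away, C/EBPα had 6.77 at 0 hpi, 18.4 at 12 hpi and 3.77 at 48 hpi, so that the direction between 0 and 48 hpi turned with the window (log2 ratio 2.74 at the site centre and −0.84 around the call).

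*Tlr1* (chr5:65316050-65324000) and *Tlr6* (chr5:65344345-65351287) lie next to each other on the minus strand, with 11 and 10 sites in their loci. The strongest PU.1 site of both loci lay 872 bp upstream of the *Tlr6* start (−0.9 kb, chr5:65352059-65352258), with levels of 143, 190, 127, 102 and 153 and a ratio of 48 to 0 hpi of 1.07 (0.827 to 1.38). The site with the most reads of both C/EBP factors at 48 hpi, in windows around the site centres, lay further upstream, 1231 bp from the start (−1.2 kb, chr5:65352418-65352617). C/EBPα levels there were 4.51, 3.21, 6.15, 10.7, 15.3, 23.5, 29 and 26.4, and those of C/EBPβ were 11.7, 10.3, 13.8, 28.8 and 47.3. The site centre is that of the C/EBPβ calls, and the strongest C/EBPα call lay 148 bp away. Around that call C/EBPα levels were 1.13, 4.01, 23.8, 15.9, 17.1, 18.4, 22.4 and 8.8, so that the time point with the most C/EBPα depended on the window, being 24 hpi at the site centre and 30 min around the call. The −0.9 kb site was also called for C/EBPα at 3 hpi (10.8) and for C/EBPβ at 24 and 48 hpi (25.6 and 29.6), so that the factors were not confined to separate windows. Both sequences are shown because they hold the most PU.1 and the most C/EBPβ reads of these loci. Capitals mark TTGCNNAA on either strand and the PU.1 consensus GAGGAAGT, which contains the ETS core GGAAGT. Neither match lies at the centre of its window. The PU.1 match starts at base 156 of 200 at −0.9 kb. The C/EBP match starts at base 8 of 200 at −1.2 kb, at the edge of the window.

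Tlr6 −0.9 kb: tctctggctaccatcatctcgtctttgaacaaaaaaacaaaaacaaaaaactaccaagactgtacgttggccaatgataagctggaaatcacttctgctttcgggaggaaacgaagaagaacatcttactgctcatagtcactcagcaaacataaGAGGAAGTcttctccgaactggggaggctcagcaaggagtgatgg
Tlr6 −1.2 kb: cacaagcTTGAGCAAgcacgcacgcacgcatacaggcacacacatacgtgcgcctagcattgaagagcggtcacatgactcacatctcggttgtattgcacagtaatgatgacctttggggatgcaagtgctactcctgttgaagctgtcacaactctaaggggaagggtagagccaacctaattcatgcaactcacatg

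Within 500 bp of the *Tlr1* start (+0.4 kb, intronic) PU.1 was called at 48 hpi alone, at 9.56 normalised reads. Among sites picked after their values were seen, +36 kb had PU.1 levels of 116, 76, 66.3, 58.2 and 50.6, lower in every later library than at 0 hpi. The site at +9.5 kb had C/EBPα levels of 1.13, 1.61, 3.85, 11.3, 20.7, 25.1, 42.2 and 21.4. In contrast, +24.4 kb went from a C/EBPα level of 3.38 at 0 hpi to its highest, 49.4, at 3 hpi and 10.1 at 48 hpi. C/EBPβ was called there at 3, 24 and 48 hpi, at 12, 32 and 13.8. No PU.1 read fell into its window in any of the 5 libraries. Of the 200-bp bins of the *Tlr1* and *Tlr6* loci, 7.08% and 4.19% held no read in any library, so sites in them could not be seen.

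*Tlr4* (chr4:66488618-66591318, plus strand) is the longest of the 8 genes and had 31 sites. Its start was occupied by PU.1 in pre-B cells: at +0.1 kb, in a UTR exon, PU.1 levels were 234, 224, 149, 135 and 170, the highest of the 8 loci at 0 hpi. C/EBPα was called at this site from 30 min on, but its calls centred 142 bp upstream of the PU.1 centre; in the 200 bp around them C/EBPα levels were 2.26, 4.01, 6.92, 8.7, 11.7, 26.8, 25.1 and 21.4. At the start of *Tlr4*, therefore, PU.1 was strong before induction, and C/EBPα had its highest levels from 12 hpi on.

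The intronic site at +24.6 kb (chr4:66513162-66513361), which lies in a window shown by the study, had the most C/EBPα and the most C/EBPβ reads of the locus at 48 hpi. C/EBPα levels were 3.38, 1.61, 21.5, 48.1, 62, 92.1, 68.6 and 47.8, and the ratio of 48 to 0 hpi was 14.1 (4.48 to 71.5), with 3 reads at 0 hpi. C/EBPβ was called from 3 hpi on, at 35.9, 41.4, 51.2 and 82.8, against 2.34 at 0 hpi. PU.1 levels were 0, 4.56, 18.7, 15 and 22, with PU.1 calls in the last 3 libraries, centred 150 bp from those of C/EBPα. Here the order of first calls was C/EBPα at 30 min, C/EBPβ at 3 hpi and PU.1 at 12 hpi; C/EBPβ and PU.1 were not profiled between 0 and 3 hpi. None of the letters searched (TTGCNNAA, GGAAGT) occurred in this window, which is shown for comparison with the *Tlr2* site above.

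Tlr4 +24.6 kb: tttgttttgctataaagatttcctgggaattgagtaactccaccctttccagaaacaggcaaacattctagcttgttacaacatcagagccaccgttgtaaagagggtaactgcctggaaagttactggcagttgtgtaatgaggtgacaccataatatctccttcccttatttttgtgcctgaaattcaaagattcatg

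Other *Tlr4* sites, picked after their values were seen, followed different courses. At −5.6 kb C/EBPα levels were 10.2, 13.2, 78.5, 91.1, 53.9, 40.2, 23.7 and 13.8, highest at 60 min, whereas those of C/EBPβ were 14, 18.8, 44.8, 51.2 and 69, highest at 48 hpi. C/EBPα was still called there at 48 hpi, at a level within the interval of that at 0 hpi (4.64 to 19.3). At +29.6 kb C/EBPα was first called at 24 hpi, with 29 normalised reads after 10.1 at 12 hpi, and PU.1 from 12 hpi on at 12.1, 9.69 and 22. PU.1 at +15.9 kb carried no C/EBP call and had levels of 82.3, 97.3, 84, 47.6 and 63.1.

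*Tlr9* (chr9:106124929-106129207, plus strand) had 13 sites, of which 5 were called for C/EBPα at any time. At its start (+0.0 kb, 29 bp downstream, in a UTR exon) PU.1 levels were 204, 158, 98.9, 89 and 108, with a ratio of 48 to 0 hpi of 0.529 (0.41 to 0.681), and no C/EBP factor was called. A weaker PU.1 site at −0.5 kb was called at 12 and 24 hpi. The strongest PU.1 site at 48 hpi lay at −22.5 kb, closer to *Ppm1m* than to *Tlr9*, with levels of 111, 135, 150, 119 and 155. C/EBPα was called there at 3 and 12 hpi, at 12.6 and 20.1. The site with the most C/EBPα reads at 48 hpi, −18 kb in an intron of *Twf2*, had 10.1 normalised reads (4.34 to 19.8), which overlapped the interval at 0 hpi (1.23 to 11.6). PU.1 at −18 kb was highest at 12 hpi, with 42.9, the one PU.1 call there. The strongest C/EBPβ site, +20.4 kb in an intron of *Alas1*, had 23.7 at 48 hpi and no read at 0 hpi.

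*Cd14* (chr18:36884728-36886390, minus strand), which encodes the lipopolysaccharide co-receptor, had 19 sites, the strongest of them downstream of the gene. The strongest site for C/EBPα and PU.1 was intergenic at +17.8 kb. It lay closer to the start of *E230025N22Rik* (13046 bp) than to that of *Cd14* (17765 bp). The locus also holds *Ik*, *Ndufa2* and *Tmco6*. C/EBPα levels there were 3.38, 33.7, 129, 97.3, 85.4, 78.7, 71.2 and 91.8, with a ratio of 48 to 0 hpi of 27.1 (8.92 to 135). The site was named for its reads at 48 hpi, which favours a high ratio. PU.1 levels were 35.5, 105, 94.3, 46.7 and 121, a ratio of 3.42 (2.22 to 5.49), and C/EBPβ levels were 2.34, 25.7, 24.1, 41.6 and 53.2. The calls of both C/EBP factors centred 168 and 178 bp from the PU.1 centre, and around its own centre C/EBPβ had 0, 70.2, 65.5, 76.9 and 104. Around its own centre C/EBPα had 4.51, 38.5, 113, 96.2, 105, 141, 100 and 109, so that the highest C/EBPα level was at 12 hpi there and at 30 min in the window of the site. At +17.8 kb a site with PU.1 at 0 hpi thus received C/EBPα at 10 min, and all 3 factors were higher at 48 hpi.

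The site at +13.2 kb, in a window shown by the study, differed in having no PU.1 call at any time point. C/EBPα levels there were 0, 0.803, 13.1, 32.2, 49.4, 40.2, 56.7 and 51.5. The level at 48 hpi was 15.2 times the floor set for 0 hpi, with a lower 95% bound of 11.8 on the reads as counted. C/EBPβ levels were 2.34, 22.2, 24.1, 51.2 and 57.2, and PU.1 stayed between 1.42 and 8.6. Its 200-bp window held 1 match to TTGCNNAA. Another site of the same window, +10.8 kb, was called for PU.1 alone from 12 hpi on, at 8.4 to 10.6. At the start of *Cd14* (+0.1 kb, UTR exon) PU.1 went from 1.42 to 12.2, 19.6, 15.9 and 23.9 and was called from 12 hpi on, which set it apart from the starts of *Tlr4* and *Tlr9*. The site at +7.1 kb, picked after its values were seen, had its highest C/EBPα level of 51.2 at 3 hpi, 7.54 at 48 hpi, and no PU.1 call. C/EBPβ was called there in 2 libraries, first at 3 hpi, with 2 reads at 0 hpi and 11 at 48 hpi.

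*Ly96* (chr1:16678537-16699686, plus strand), which encodes the other partner of TLR4, had 5 sites, the fewest of the 8 loci. PU.1 was called at all time points just upstream of its start (−0.1 kb), at 21.3, 38, 26.1, 15 and 33.4. C/EBPα was called at −26 kb, 2694 bp from a start of *Tmem70*, at 30 and 60 min, at 7.69 and 8.7. It had 1 read (1.26 normalised reads) at 48 hpi, and C/EBPβ was not called in the locus. C/EBPα was also called beside the start at 30 min, 60 min and 3 hpi; around the centre of these calls its levels were 4.51, 1.61, 7.69, 6.14, 8.99, 10.1, 3.96 and 6.29 from 0 hpi to 48 hpi, with no clear order in time. Of its bins 9.63% held no read in any library, the largest share of the 8 loci.

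*Myd88* (chr9:119245052-119250529, minus strand), the shared adaptor, had 11 sites. Its strongest site for both C/EBP factors lay at its start (+0.3 kb, chr9:119250117-119250316), in an intron and 195 bp from a start of *Acaa1a*. C/EBPα levels were 6.77, 4.82, 15.4, 12.8, 58.4, 51.9, 31.6 and 39, a ratio of 48 to 0 hpi of 5.76 (2.37 to 16.9). The step between 60 min and 3 hpi coincides with the change of sequencer, whose part was not tested. C/EBPβ levels were 7.01, 25.7, 37.9, 41.6 and 63.1, and PU.1, called at 12 hpi alone, had 4.25, 6.08, 13.1, 7.93 and 5.73. Among sites within 500 bp of the 8 starts this one had the most C/EBPα reads at 48 hpi. Its sequence, shown for that reason, holds the C/EBP consensus and an ETS core (GGAAGT) side by side, both in capitals.

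Myd88 +0.3 kb: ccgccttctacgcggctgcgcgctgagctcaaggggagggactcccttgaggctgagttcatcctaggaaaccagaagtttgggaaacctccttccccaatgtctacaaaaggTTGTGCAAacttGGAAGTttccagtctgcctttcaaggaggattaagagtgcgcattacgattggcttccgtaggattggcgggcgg

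PU.1 was strongest in the *Myd88* locus at +6.9 kb, beyond the end of the gene, with 39.7, 51.7, 116, 96.9 and 84.1 normalised reads and a ratio of 2.12 (1.37 to 3.37).

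**Figure D3:**
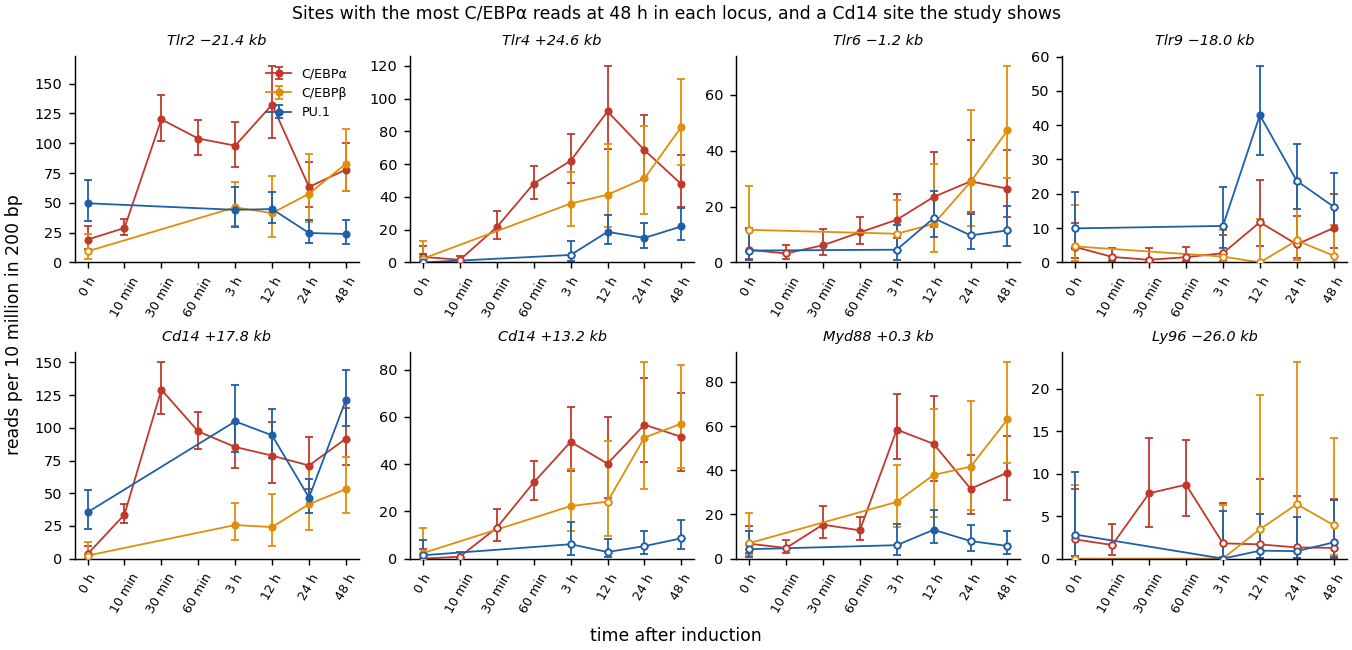
Normalised reads in 200 bp around the site centre, for the 3 factors against time, with exact 95% Poisson intervals. Drawn are the site with the most C/EBPα reads at 48 hpi in this window in each locus (*Tlr1* and *Tlr6* share theirs) and *Cd14* +13.2 kb. Around the strongest C/EBPα call, *Tlr1* +9.5 kb had more than *Tlr6* −1.2 kb (21.4 and 8.8), and *Ly96* −0.1 kb more than −26 kb (6.29 and 1.26). Filled points are called, open points are not, and the time axis is not to scale. C/EBPα at *Cd14* +17.8 kb and *Tlr2* −21.4 kb is at 129 and 120 by 30 min, while *Tlr4* +24.6 kb reaches 92.1 at 12 hpi.

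**Figure D4:**
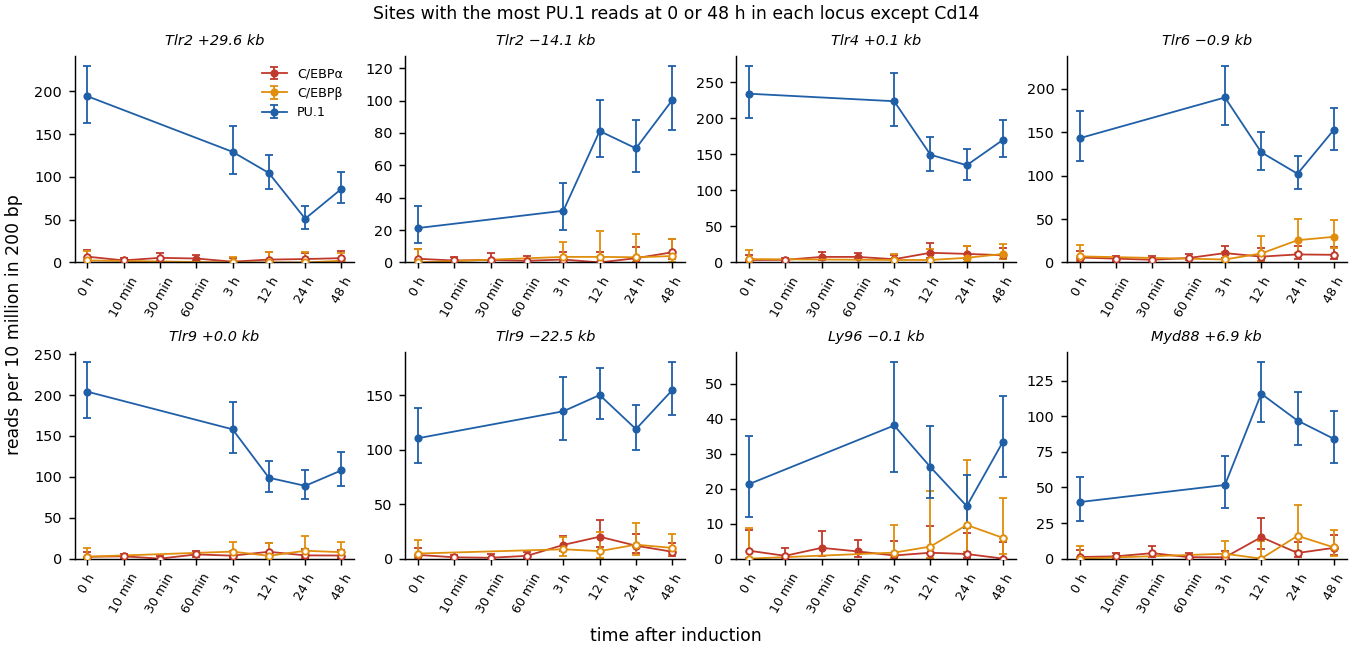
The same values at the sites with the most PU.1 reads at 0 or 48 hpi, except that of *Cd14*, which stands among the C/EBPα sites. PU.1 at the starts of *Tlr4* and *Tlr9* is highest at 0 hpi (234 and 204), and at *Tlr2* −14.1 kb at 48 hpi (100).

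**Figure D5:**
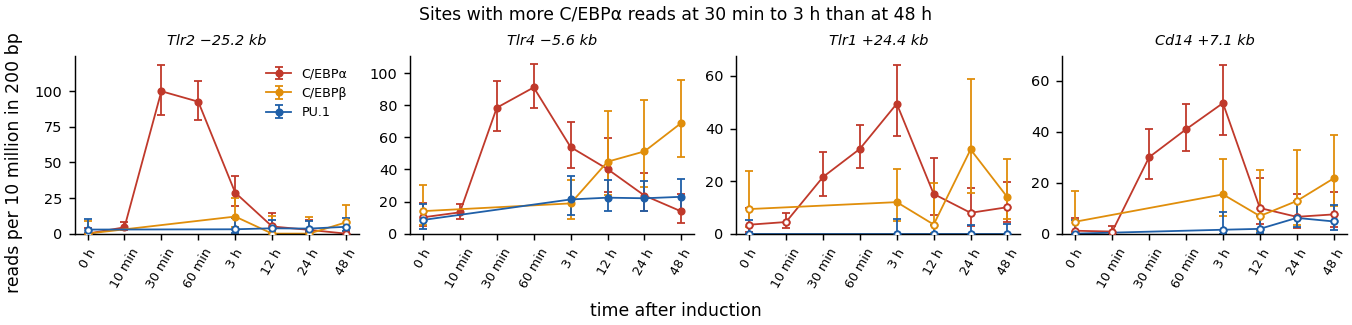
The same values at 4 sites, picked after their values were seen, where C/EBPα was highest between 30 min and 3 hpi. At *Tlr2* −25.2 kb C/EBPα goes from 100 at 30 min to 0 at 48 hpi.

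Levels at 48 and 0 hpi were also set side by side over all sites of a factor. These sites entered through the calls, of which C/EBPα had 1 and C/EBPβ 0 at 0 hpi in the 8 loci, so a higher level at 48 hpi is largely fixed by how the sites were chosen and the counts are a description. Of 48 C/EBPα sites, 31 had more than 3 reads in either library; 21 were at least 2-fold higher at 48 hpi and 1 at least 2-fold lower, against 50.6% and 12.4% of all such C/EBPα sites of the genome. The median log2 ratio was 2.02 in the 8 loci and 1.06 over the genome. Of 33 C/EBPβ sites 32 could be compared, with 28 at least 2-fold higher and 0 lower (genome 82.7% and 1.64%), and medians of 2.24 and 2.17. Of 81 PU.1 sites 77 could be compared, with 40 at least 2-fold higher and 8 lower (genome 29.6% and 20.4%), and medians of 1.02 and 0.17. The share of C/EBPβ sites past 2-fold was thus near that of the genome.

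In the 8 loci 18 sites were called for C/EBPα at 48 hpi, out of 48 called at any time, and 18.8% of all C/EBPα sites of the genome were. Of these 18 sites, 7 had a PU.1 call within 1000 bp at 0 hpi, against 41.2% of all C/EBPα sites of 48 hpi. Those 7 were *Cd14* +17.8 kb, *Tlr2* +0.1 and −21.4 kb, *Tlr4* −5.6 and +0.1 kb, *Tlr1* +36 kb and *Tlr6* −1.2 kb. The other 11 included *Tlr4* +24.6 and +29.6 kb, *Cd14* +13.2 kb, *Tlr2* −3.6, −17.5 and −18.1 kb and *Myd88* +0.3 kb. Of the 81 PU.1 sites 28 were called at 0 hpi, against 37.4% of the genome. Between 10 min and 3 hpi, and at no other time, 19 C/EBPα sites were called, and of all C/EBPα sites of the genome 58.3% were.

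Consensus letters were also counted over all sites. TTGCNNAA occurred in 5 of the 18 C/EBPα windows of 48 hpi (27.8%) and in 34.5% of such windows over the genome. Among C/EBPα windows called only between 10 min and 3 hpi it occurred in 6 of 19 (31.6%, genome 28.8%). It occurred in 9 of the 32 C/EBPβ windows of 48 hpi (28.1%, genome 41.7%). GAGGAAGT occurred in 8 of the 28 PU.1 windows of 0 hpi (28.6%, genome 28.7%) and GGAAGT in 23 of them (82.1%, genome 65.9%). The AP-1 letters TGANTCA occurred in 4 of the 18 C/EBPα windows (22.2%, genome 14.6%) and the RUNX letters TGTGGTT in 1 (5.56%, genome 9.16%). All were searched on both strands in 200 bp.

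Another 30 genes of the pathway, listed as receptors, co-receptors and chaperones, adaptors, kinases and ligases, and inhibitors, were read out in the same way. C/EBPα was called in 4 of their 30 loci at 0 hpi, 23 at 60 min and 15 at 48 hpi, where all protein-coding loci had 15.3%, 58.7% and 38.4%. C/EBPβ was called in 2 at 0 hpi and 21 at 48 hpi (all loci 4.4% and 47.5%), and PU.1 in 27 at 0 hpi and all 30 at 48 hpi (70.6% and 75.3%). At 48 hpi C/EBPα was called in 3 of 7 receptor loci (*Tlr7*, *Tlr8* and *Tlr13*, with *Tlr3*, *Tlr5*, *Tlr11* and *Tlr12* without), 5 of 7 co-receptor and chaperone loci, 2 of 4 adaptor loci (*Ticam1* and *Ticam2*), 4 of 10 kinase and ligase loci, and 1 of 2 inhibitor loci (*Sigirr*). With so few loci a role, and 38.4% of all loci called, these counts do not set one role apart from the background. The strongest C/EBPα sites of 48 hpi among them were at *Irak2*, a kinase downstream of MYD88, with 118 normalised reads, and at *Tlr13*, the receptor for bacterial ribosomal RNA, with 72.9.

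Summed over the windows of all sites of a locus, C/EBPα levels at 48 hpi were 221 normalised reads at *Tlr2*, 207 at *Cd14*, 162 at *Tlr4*, 86.7 at *Tlr1*, 79.2 at *Myd88*, 65.4 at *Tlr6*, 50.3 at *Tlr9* and 3.77 at *Ly96*. The intervals of *Tlr2* (190 to 256) and *Cd14* (177 to 242) overlapped each other and that of *Tlr4* (135 to 193). Those of *Tlr1*, *Myd88*, *Tlr6* and *Tlr9* also overlapped. The differences themselves were not tested. In windows of 400 bp the first places changed, with 365 at *Cd14*, 289 at *Tlr2* and 239 at *Tlr4*. The summed PU.1 reads at 0 hpi gave another order, with 519 at *Tlr4*, 444 at *Tlr9*, 326 at *Tlr2*, 289 at *Tlr1*, 179 at *Tlr6*, 105 at *Myd88*, 93.6 at *Cd14* and 35.5 at *Ly96*. These sums grow with the number of sites, which was 31 at *Tlr4* and 5 at *Ly96*. For 7 of the genes the protein-coding gene outside the locus with the most similar summed levels over the 18 libraries was *H2-Eb2* for *Tlr1*, *Tank* for *Tlr2*, *Cast* for *Tlr4*, *Asah2* for *Tlr6*, *Sugp2* for *Tlr9*, *Mospd1* for *Cd14* and *Nfam1* for *Myd88*. Pearson's r was 0.965 to 0.99, with a median over all compared genes of 0.518 to 0.798. The points share factor, antibody and library depth, and the value is a description.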

How the data were processed

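The deposited files hold 1 line per aligned read, with chromosome, start, end and strand and no score, control library or normalization. The authors aligned reads to mm9 with ELAND or Bowtie and called peaks with HOMER; versions are not given in the sources used here. No read lay beyond the end of an mm9 chromosome. Reads were counted once per position and strand. HOMER's rules were rebuilt: the tag threshold of the study's peak-calling summary, the window implied by it with a genome of 2000000000 bp, 4-fold over the surrounding 10 kb, maxima 2 windows apart, and a Poisson p against the local rate no larger than 0.0001. The caller was run on simulated reads at the depth, window and threshold of the C/EBPα library of 48 hpi alone. The settings of the other libraries and the thinned calls were not simulated, and the outcome is not given here. Genes were those of GENCODE vM1 (mm9). Ratios of 48 to 0 hpi have exact 95% intervals (Clopper-Pearson on the reads of both libraries), and libraries at 0 were set to 3 reads. PU.1 within 1000 bp counted as shared. The similarity measure used log2(normalised reads + 1) and genes with at least 3 sites. Its result for *Ly96* is not reported here. The study's methods and the labels differ in the estradiol dose. Members, gene lists and rules were chosen with earlier results of these data known. Python 3.11.15, numpy 2.4.6 and scipy 1.17.1 were used.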

Additional observations from a re-analysis of the deposited data

How the results depend on the processing

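With a tag threshold 1.5 times higher, C/EBPα sites and loci at 0 hpi went from 1 to 0, C/EBPα sites at 48 hpi from 18 to 11, C/EBPβ sites at 48 hpi from 32 to 17, and C/EBPα sites of 48 hpi with PU.1 at 0 hpi from 7 to 4. Thinning each library to the smallest of its factor, at unchanged tag thresholds, left 18 C/EBPβ sites at 48 hpi. With 1 window of 200 bp and a Poisson p of 1e-07, C/EBPα had 3 sites in 3 loci at 0 hpi. With 10 kb either side of the genes, by construction, 65 sites remained: C/EBPα had 0 at 0 hpi (0 loci) and 10 at 48 hpi, C/EBPβ 18 at 48 hpi, and PU.1 17 at 0 and 33 at 48 hpi. C/EBPα sites at least 2-fold lower at 48 hpi numbered 3 in 400 bp, 2 in 1000 bp, and 0 with reads moved to the middle of the estimated fragment, and such PU.1 sites 5 and 2 in 400 and 1000 bp. Of 274 recomputed log2 ratios 273 stayed within the interval of the value given. The exception was C/EBPα at *Tlr2* +0.1 kb, with a log2 ratio of 2.74 around the site centre and −0.84 around the strongest C/EBPα call, 250 bp away, a setting chosen after seeing the data; its cause was not tested. The recomputed ratios reuse the same reads, and many intervals are wide, so this count says little of how firm the ratios are. The 42 ratios with all reads as deposited could hardly change. Duplicates were 0.152% and 0.187% of the C/EBPα reads at 0 and 48 hpi, and 0 for the other factors. No paired analysis was possible because each factor and time point had 1 library. In the smallest library (C/EBPβ at 12 hpi, 2901164 reads) a call needed 6 reads in 75 bp, and sites with fewer could not be called there.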
